A study of Mus musculus with 6 samples.

Results

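The genes described here are 38 integrin, hemidesmosome and basement membrane genes that keratinocytes make, taken from a list of names and matched to the Ensembl identifiers of the expression table. All 38 were found among its 35275 identifiers, and 31 were abundant enough to be tested. The libraries came from CD1 IGS mouse embryos at E16.5 whose dams had doxycycline chow from E14.5. The 3 control libraries have the genotype control, and the sources used here do not say which transgenes those embryos had. The 3 K10-spastin libraries have the genotype K10rtTA;TREspastin. In them the keratin 10 promoter, active once cells leave the basal layer, makes an activator that with doxycycline turns on spastin, an enzyme that severs microtubules. The protocol, which names the alleles K10-rtTA, TRE-H2B-GFP and TRE-Spastin for the dams, is the same for both groups: back-skin epidermis was freed with dispase and cells with the nuclear fluorescent protein were sorted. Each library is an independent RNA sample, but nothing says how many embryos it pools, and p-values cover only the spread among these 6 samples, which may be technical. Levels are in FPKM, fragments per kilobase of gene scaled to a common library size. Spast, the induced gene, was 21.2, 24.0 and 21.4 FPKM in controls 1 to 3 against 1431, 639 and 213 FPKM in the K10-spastin libraries 1 to 3 (limma adjusted p = 0.00865).

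Basal keratinocytes rest on a basement membrane, a sheet of laminins, type IV collagens, nidogens and heparan sulfate proteoglycans. They hold on to it through integrins, which are paired alpha and beta chains that span the cell membrane. In the hemidesmosome the integrin of alpha 6 and beta 4 binds laminin-332 outside the cell and, through plectin and dystonin, keratin filaments inside it. Integrins of beta 1 bind laminins and collagens, and those of alpha v bind fibronectin and the latent form of TGF-beta. Cells that move up into the suprabasal layers are known to leave the membrane and to make less of most of these proteins.

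The sorted cells had the markers of suprabasal keratinocytes, with Krt1 and Krt10 at 11410 to 32510 FPKM. Krt10, whose promoter drives the transgene, fell, from 32510, 23700 and 26800 to 16980, 13070 and 17320 FPKM (limma adjusted p = 0.0438). Krt1 was also lower in every K10-spastin library but did not pass (limma adjusted p = 0.0838), and the other 6 of the 8 suprabasal markers overlapped between groups. Basal markers were also present. The sum of 8 of them was 4112 to 7182 FPKM in controls and 2521 to 4729 FPKM in K10-spastin. Endothelial markers summed to at most 0.361 FPKM. The sum of 6 immune markers was 1.40 to 4.31 FPKM, most of it Cd52, with Cd207 and Cd3e listed at 0 in every library. Depth, read from the step size of low values, was 16000000 to 22480000 fragments per library, so that 3 fragments in a transcript of 1 kb were worth 0.133 to 0.188 FPKM. Between 10342 and 11190 genes per library reached 1 FPKM.

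Most of the adhesion and matrix genes had lower levels in K10-spastin cells, and 2 passed as higher, a share near that of all genes. Of the 31 tested, 11 fell (limma on log2(FPKM + 1), adjusted p under 0.05), against 5.90% of all 11071 genes tested. They were the integrin beta chains Itgb1 and Itgb5, the hemidesmosome linker Dst, the anchoring fibril collagen Col7a1, the laminin chain Lamb1, the type IV collagens Col4a1, Col4a5 and Col4a6, the laminin receptor Dag1, the epidermal adhesion protein Fras1 and the matrix glycoprotein Thbs1. The 2 that rose, against 5.14% of all genes, were the integrin chain Itgav and the basement membrane collagen Col18a1. As shares these are 35.5% lower and 6.45% higher. The median change over the 31 was -1.20 on the log2(FPKM + 1) scale, where low genes show too small a change, and that of all genes tested was -0.09. Levels of the groups did not overlap in 22 of the 31, against 40.4% of all genes tested: K10-spastin lay below in 18 (24.8% of all genes) and above in 4 (15.6%). Over all 38 genes without a filter on low values the median was -1.03, and -0.04 over all genes. Mean FPKM was lower in K10-spastin for 30 of the 38 and higher for 8. In 4 of the tested genes, Col4a2, Frem2, Npnt and Fn1, the mean was at least 1 FPKM in controls alone, and none of these passed.

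**Figure D1:**
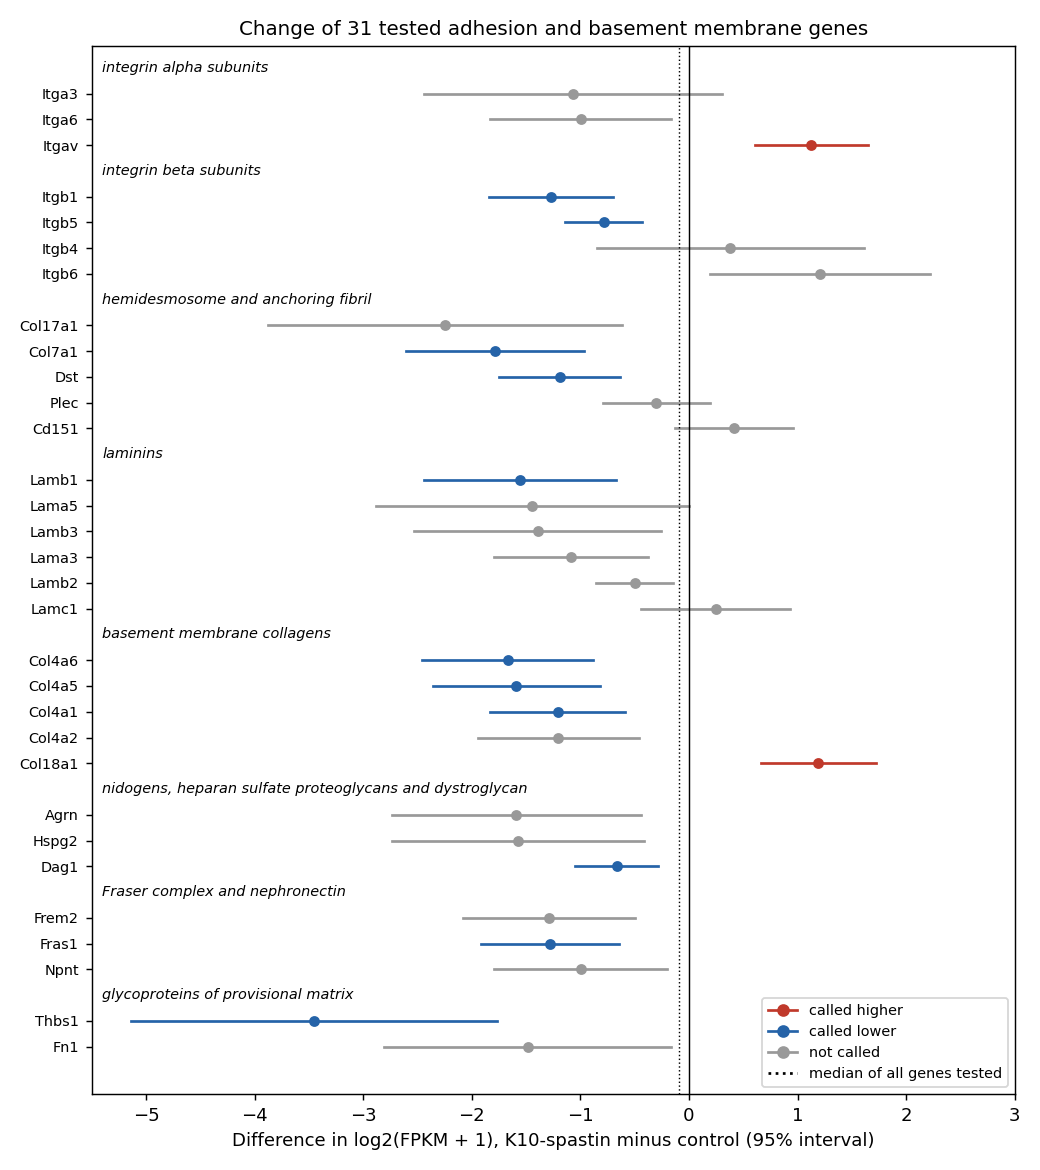
Difference in log2(FPKM + 1) between K10-spastin and control (x axis) for each of the 31 tested genes (y axis), grouped by role; points are the limma estimates, lines their 95% intervals, colours the calls, and the dotted line the median of all genes tested (-0.09). The 11 genes in blue fell and the 2 in red, Itgav and Col18a1, rose.

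These calls rested on all 3 controls. Without control 3 none of the 13 passed, without control 2 only Col7a1 did, and without control 1 only Thbs1 and Col18a1 did. Calls among all genes also fell, from 569 higher and 653 lower to 114 and 31 without control 3. They were 137 and 67 without control 2, and 219 and 223 without control 1. Without K10-spastin 2, 8 of the 13 still passed, and Itgav, Col18a1, Itgb5, Dag1 and Lamb1 did not. Without K10-spastin 1, 11 passed and Thbs1 and Col7a1 did not, and without K10-spastin 3, 12 passed and Col4a1 did not. Each of these fits had fewer libraries. With no filter on low values, where the adjustment runs over every gene above 0 in any library, only Col18a1 and Itgb5 passed of the 13. Of all genes, 319 were then called higher and 348 lower. With weights fitted to each library 2 genes rose and 23 fell, where calls among all genes also went up, from 569 higher and 653 lower to 1535 and 1771.

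The libraries of a group differed from each other in a common way. Control 3 was the highest control in 27 of the 31 genes. K10-spastin 2 was the highest K10-spastin library in 22 of the 25 genes with a negative change and the lowest in none of them. The median level of the 31, relative to the control mean, was -0.16, -0.16 and 0.41 in controls 1 to 3 and -1.41, -0.65 and -1.37 in K10-spastin 1 to 3 on the log2(FPKM + 1) scale. The same medians over all genes tested were 0.04, -0.01 and -0.03 and then -0.30, 0.04 and -0.02. The order of the medians of the 31 among K10-spastin libraries was not that of Spast. Spast was highest in K10-spastin 1, the next in K10-spastin 2 and lowest in K10-spastin 3. The 4 tested genes that were highest in K10-spastin 1 were Itgav, Itgb4, Itgb6 and Lama3. Since K10-spastin 2 was the lowest K10-spastin library in none of the 31, any such gene had to have the order of Spast. That order therefore says nothing about a link to Spast.

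Of the 12 marker lists, 4 had their highest sums in control 3 and K10-spastin 2, like most of the 31 genes: those of melanocytes, dermal fibroblasts, immune cells and proliferation. The other 8 did not. The sum of 6 melanocyte markers was 3.61, 8.64 and 15.2 FPKM in controls 1 to 3 and 1.91, 23.8 and 2.34 FPKM in K10-spastin 1 to 3. The sum of 8 dermal fibroblast markers was 181, 220 and 295 FPKM in controls and 58.4, 135 and 118 FPKM in K10-spastin. Most of it was Postn, a matrix protein. Of these 8, Dcn, a dermal proteoglycan, fell, from 4.33, 6.25 and 14.8 to 0.439, 2.31 and 1.597 FPKM (limma adjusted p = 0.0456). Postn, Col1a1, Col1a2, Col3a1 and Lum were lower in every K10-spastin library than in any control without passing or, for Lum, being tested, and the defining receptor Pdgfra and factor Twist2 were at most 0.0476 FPKM in any library. The immune sum was 1.95, 2.68 and 4.31 FPKM in controls and 1.90, 4.21 and 1.40 FPKM in K10-spastin. The proliferation sum was 93.3, 91.7 and 95.9 FPKM in controls and 53.2, 201 and 159 FPKM in K10-spastin. Of 5 hair placode and follicle markers, Lhx2 and Lef1 fell (limma adjusted p = 0.0450 and 0.0375), while the sum of the 5 was 11.5, 23.0 and 40.03 FPKM in controls and 56.3, 45.0 and 22.6 FPKM in K10-spastin. Most of the sum in K10-spastin was Sox9, which went the other way and did not pass (limma adjusted p = 0.110). Sox9 was 4.58, 15.8 and 22.2 FPKM in controls and 55.8, 42.0 and 21.3 FPKM in K10-spastin. Of the basal markers Krt15 and Sox6 fell, 2 of 8, and Trp63, the regulator of the basal state, went from 63.8, 63.6 and 66.8 to 43.6, 51.0 and 37.9 FPKM (limma adjusted p = 0.0514). Tgfbi was also lower in every K10-spastin library without passing (limma adjusted p = 0.0523). Krt14, Cdh3, Krt5 and Wnt10a overlapped between groups and did not pass, and the log2 changes of Krt14 and Cdh3 were positive, at 0.07 and 0.35. The part of these cells in the results was not tested. Fewer basal cells in a sort and less of a transcript per cell cannot be told apart in bulk RNA.

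**Figure D2:**
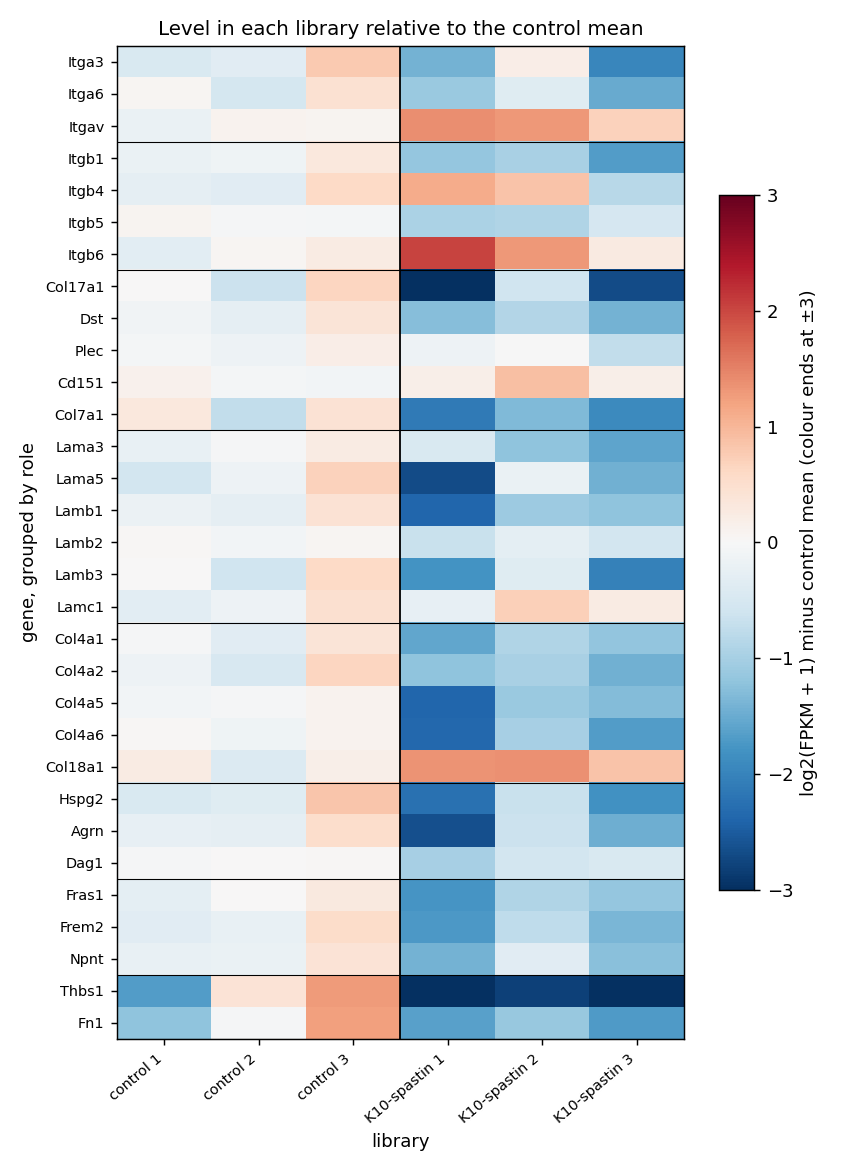
Level of each of the 31 tested genes (rows, grouped by role) in each library (columns) as log2(FPKM + 1) minus the control mean, with the colour scale ending at plus and minus 3. Most genes are blue in the 3 K10-spastin columns and palest in K10-spastin 2, while Itgav, Itgb6, Col18a1 and, faintly, Cd151 are red in all 3.

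Among the integrin alpha chains, Itgav (ENSMUSG00000027087), the alpha v chain that receives fibronectin and latent TGF-beta, was the one that rose. Its level was 11.3, 14.3 and 14.1 FPKM in the controls against 36.5, 33.7 and 21.8 FPKM in K10-spastin 1 to 3. Every K10-spastin library lay above every control, and the log2 change was 1.13 ± 0.22 (SE, n = 3 per group; limma adjusted p = 0.0246). The laminin-binding chains did not rise. Itga6, the hemidesmosomal alpha chain, stood at 23.2, 14.9 and 30.9 FPKM in controls against 9.70, 17.0 and 7.06 FPKM in K10-spastin, with a change of -0.997 ± 0.356 (limma adjusted p = 0.106). Itga3, the alpha chain of a beta 1 laminin receptor, had a change of -1.07 ± 0.58 (limma adjusted p = 0.255), and the groups overlapped for both. Itga2, a collagen receptor chain, was at most 0.237 FPKM and was not tested.

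Of the 4 beta chains tested, 2 fell and none rose. Itgb5 (ENSMUSG00000022817), a partner of alpha v, was by far the most abundant integrin chain, at 192, 176 and 173 FPKM in controls against 92.9, 96.0 and 127 FPKM in K10-spastin. The groups did not overlap, and the log2 change was -0.78 ± 0.15 (limma adjusted p = 0.0232). Itgb1 (ENSMUSG00000025809), the shared beta chain of collagen, laminin and fibronectin receptors, went from 13.0, 13.7 and 19.1 FPKM to 6.13, 7.21 and 4.05 FPKM, with a change of -1.27 ± 0.24 (limma adjusted p = 0.0229). Both chains were lower in every K10-spastin library than in any control.

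Itgb6, the epithelial partner of alpha v that activates TGF-beta in wounds, stood at 1.21, 1.82 and 2.26 FPKM in controls against 10.2, 5.76 and 2.30 FPKM in K10-spastin. K10-spastin 3 lay just above the highest control, and the change of 1.21 ± 0.43 did not pass (limma adjusted p = 0.106). It passed without K10-spastin 3 (limma adjusted p = 0.0218), and over all 14 other settings that tested it the adjusted p was 0.0218 to 0.302. Itgb4, the hemidesmosomal beta chain, stood at 11.9, 11.3 and 22.6 FPKM in controls against 32.8, 27.2 and 7.68 FPKM in K10-spastin, so that the K10-spastin libraries lay on both sides of the controls. Its change was 0.38 with a 95% interval of -0.85 to 1.61. Itgb8, another partner of alpha v, was at most 0.481 FPKM.

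**Figure D3:**
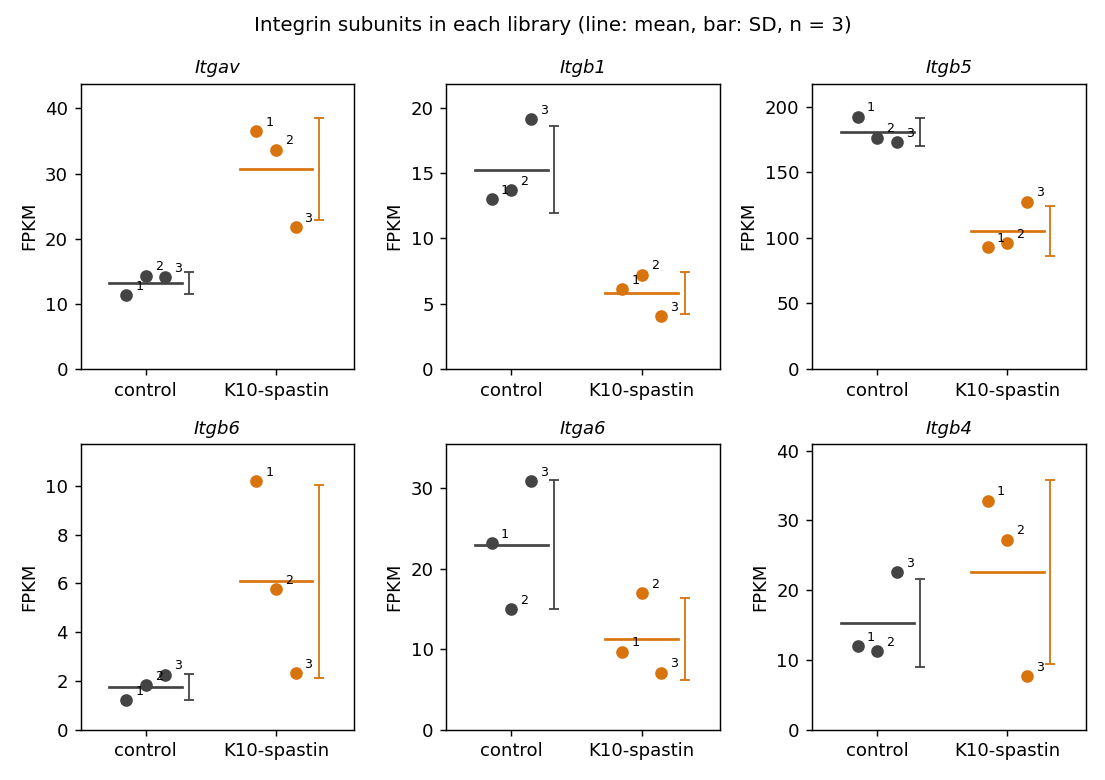
FPKM (y axis, from 0) of 6 integrin chains in control and K10-spastin libraries; numbered points are libraries, lines are means and bars are SD (n = 3). Itgav lies higher and Itgb1 and Itgb5 lower in each K10-spastin library than in any control, and Itga6 and Itgb4 overlap between groups.

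Since the chains work in pairs, 9 ratios of FPKM between partners were formed, chosen after the values had been seen. For 3 against 3 libraries the smallest two-sided p that an exact permutation test can give is 0.1, or 0.225 after adjustment over the 9 ratios, and 4 ratios reached it. For Itgav to Itgb1 and Itgav to Itgb5 this outcome was fixed beforehand. Itgav lay above every control and Itgb1 and Itgb5 below, so these ratios had to separate. Their p-values add nothing to the calls of the single genes. The ratio of Itgav to Itgb1 was 0.869, 1.04 and 0.738 in controls and 5.95, 4.67 and 5.37 in K10-spastin, a log2 difference of 2.60. That ratio varied little within each group, with a SD of 0.250 and 0.175 on the log2 scale. Itgav to Itgb5 went from 0.0588, 0.0811 and 0.0816 to 0.393, 0.351 and 0.171. Itga6 to Itgb4, the chains of the hemidesmosomal integrin, went the other way, from 1.95, 1.33 and 1.37 to 0.296, 0.623 and 0.920. The fourth was Lama5 to Lamc1, chains of one laminin. The ratio of Itgav to Itgb6, by contrast, overlapped, at 6.25 to 9.37 in controls and 3.58 to 9.44 in K10-spastin.

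The 250 bases before the start of the rising alpha chain and of its falling, most abundant partner are shown to set the 2 promoters side by side (RefSeq, GRCm38.p6). Itgav starts at the end of chr2:83724147-83724396 on the plus strand and Itgb5 at the end of chr16:33829415-33829664 on the plus strand. The GC content is 64.4% and 65.2%, with 18 CpG pairs in each. Neither holds the letters searched for, as given further on, so nothing is in capitals.
Itgav: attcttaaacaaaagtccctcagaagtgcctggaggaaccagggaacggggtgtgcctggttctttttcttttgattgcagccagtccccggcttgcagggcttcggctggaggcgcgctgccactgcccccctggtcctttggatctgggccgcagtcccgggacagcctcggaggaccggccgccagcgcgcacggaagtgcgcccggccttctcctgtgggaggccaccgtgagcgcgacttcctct
Itgb5: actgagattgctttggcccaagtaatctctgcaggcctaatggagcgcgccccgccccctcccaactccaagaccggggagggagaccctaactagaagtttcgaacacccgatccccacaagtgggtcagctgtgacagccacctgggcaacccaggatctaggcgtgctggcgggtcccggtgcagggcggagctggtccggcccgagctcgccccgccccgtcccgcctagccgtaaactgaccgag

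In the hemidesmosome and anchoring fibril, 2 of 5 genes fell. Col7a1 (ENSMUSG00000025650), which forms the fibrils that tie the membrane to the dermis, stood at 69.8, 32.8 and 75.2 FPKM in controls against 12.0, 21.7 and 14.2 FPKM in K10-spastin. The groups did not overlap, with a log2 change of -1.78 ± 0.35 (limma adjusted p = 0.0243). Dst (ENSMUSG00000026131), whose epithelial form links the hemidesmosome to keratin, went from 13.6, 12.2 and 19.6 FPKM to 5.49, 7.67 and 4.94 FPKM, a change of -1.19 ± 0.24 (limma adjusted p = 0.0256). Its exons share 1037 bases with a gene on the other strand, Gm26788, which was at most 1.99 FPKM.

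Col17a1, the membrane collagen of the hemidesmosome, had the second largest negative change of the 31, -2.25 ± 0.70, and did not pass (limma adjusted p = 0.0774). It stood at 40.2, 25.5 and 63.2 FPKM in controls against 2.78, 26.1 and 5.41 FPKM in K10-spastin, so that K10-spastin 2 reached the level of control 2 while the others were far below. It passed without K10-spastin 2 (limma adjusted p = 0.0209) and with array weights (limma adjusted p = 0.0232), and over its 15 other settings the adjusted p was 0.0209 to 0.224. Plec, the other linker to keratin, stood at 54.1, 50.6 and 64.1 FPKM in controls and 49.9, 55.8 and 33.4 FPKM in K10-spastin, and the groups overlapped. Its change of -0.30 had a 95% interval of -0.79 to 0.19. The tetraspanin Cd151, which holds laminin-binding integrins in the membrane, was a little higher in each K10-spastin library, at 12.9 to 15.02 FPKM against 15.4 to 26.6 FPKM, with a change of 0.42 ± 0.23 (limma adjusted p = 0.259).

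Of the 6 laminin chains, Lamb1 fell. Lamb1 (ENSMUSG00000002900), the beta 1 chain of laminin-511, went from 7.39, 6.84 and 11.6 FPKM to 0.818, 3.42 and 3.09 FPKM, a change of -1.55 ± 0.38 (limma adjusted p = 0.0438). The groups did not overlap, and the call was lost with a pseudocount of 0.1 (limma adjusted p = 0.0597) and with a filter at 5 FPKM (limma adjusted p = 0.0509). The chains of laminin-332, the ligand of the hemidesmosome, had changes of -1.08 ± 0.30 for Lama3 and -1.39 ± 0.48 for Lamb3 (limma adjusted p = 0.0607 and 0.101). Lama3 stood at 7.59, 8.81 and 10.8 FPKM in controls against 6.22, 3.31 and 2.36 FPKM in K10-spastin, with no overlap.

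Lama5, the alpha chain of laminin-511, stood at 16.1, 21.7 and 39.6 FPKM in controls against 2.88, 20.9 and 8.26 FPKM in K10-spastin. As for Col17a1, K10-spastin 2 alone reached the range of the controls (change -1.44 ± 0.61, limma adjusted p = 0.158). Lamc1, the gamma chain that laminin-511 shares with other laminins, did not go with Lama5 and Lamb1. It stood at 24.1, 26.9 and 42.2 FPKM in controls and 25.5, 50.1 and 36.2 FPKM in K10-spastin, overlapping, a change of 0.24 with a 95% interval of -0.45 to 0.94. Lamb2, an alternative beta chain, was 31.5 to 35.3 FPKM in controls and 20.8 to 27.4 FPKM in K10-spastin (change -0.50 ± 0.15, limma adjusted p = 0.0721).

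The collagens of the membrane held 3 of the falls and 1 of the rises. Type IV collagen is built of 3 chains from 6 genes, which lie in head-to-head pairs. Col4a5 (ENSMUSG00000031274) went from 16.1, 16.7 and 18.6 FPKM to 2.501, 7.42 and 6.39 FPKM, a log2 change of -1.59 ± 0.33 (limma adjusted p = 0.0284). Its neighbour Col4a6 (ENSMUSG00000031273) went from 6.76, 5.91 and 7.09 FPKM to 0.490, 2.81 and 1.37 FPKM, a change of -1.67 ± 0.34 (limma adjusted p = 0.0266). The controls of both genes were close together, and K10-spastin 1 was the lowest library for each.

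Of the other pair, Col4a1 fell. It went from 7.26, 5.64 and 10.03 FPKM to 1.87, 3.55 and 2.75 FPKM, a change of -1.21 ± 0.27 (limma adjusted p = 0.0335). Col4a2 went from 3.08, 2.26 and 6.06 FPKM to 0.978, 1.32 and 0.680 FPKM, with a change of -1.20 ± 0.31 that did not pass (limma adjusted p = 0.0523). Within each pair the ratio of the 2 genes overlapped between the groups, at 1.66 to 2.5 and 1.91 to 4.05 for Col4a1 to Col4a2 and at 2.38 to 2.83 and 2.64 to 5.10 for Col4a5 to Col4a6. Col4a3 and Col4a4, the chains of kidney and other specialised membranes, were at most 0.0939 FPKM in any library.

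In RefSeq the starts of Col4a1 and Col4a2 lie 21 bases apart on chromosome 8, with the first 22 bases of the 2 transcripts overlapping. Those of Col4a5 and Col4a6 lie 1343 bases apart on the X chromosome. The bases before each start of the X-linked pair, which fell together, are shown as the 2 ends of the stretch between them: chrX:141475169-141475418 on the plus strand for Col4a5 and chrX:141474077-141474326 on the minus strand for Col4a6 (RefSeq, GRCm38.p6). They differ in base content, with 10 CpG pairs before Col4a5 and 3 before Col4a6. Nothing is in capitals because neither holds a match.
Col4a5: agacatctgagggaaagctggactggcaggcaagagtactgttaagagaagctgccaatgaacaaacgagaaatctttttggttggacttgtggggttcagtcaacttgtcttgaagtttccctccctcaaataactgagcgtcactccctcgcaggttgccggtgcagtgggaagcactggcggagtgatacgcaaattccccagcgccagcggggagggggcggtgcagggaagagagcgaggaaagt
Col4a6: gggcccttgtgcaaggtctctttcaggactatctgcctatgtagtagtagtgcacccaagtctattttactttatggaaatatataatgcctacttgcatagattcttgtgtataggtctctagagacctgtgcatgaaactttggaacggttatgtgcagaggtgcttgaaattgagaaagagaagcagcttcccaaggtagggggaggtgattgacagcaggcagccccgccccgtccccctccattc

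Col18a1 (ENSMUSG00000001435), the heparan sulfate collagen whose end is released as endostatin, went against the type IV chains. It stood at 43.7, 27.5 and 41.4 FPKM in controls against 95.5, 97.5 and 67.0 FPKM in K10-spastin. Every K10-spastin library was above every control, and the change was 1.19 ± 0.23 (limma adjusted p = 0.0223). By mean FPKM it was the most abundant of these collagens in K10-spastin, while Col7a1 was in controls. RefSeq gives Col18a1 2 starts, and the table has 1 value per gene, so the starts cannot be told apart. The bases before the inner start, chr10:77113706-77113955 on the minus strand (RefSeq, GRCm38.p6), are shown because they hold 2 matches to GGAATG, the letters bound by TEAD factors, at 104 to 99 and 54 to 49 bases before the start. Capitals mark these matches, the first of which reads CATTCC because it lies on the other strand.
Col18a1: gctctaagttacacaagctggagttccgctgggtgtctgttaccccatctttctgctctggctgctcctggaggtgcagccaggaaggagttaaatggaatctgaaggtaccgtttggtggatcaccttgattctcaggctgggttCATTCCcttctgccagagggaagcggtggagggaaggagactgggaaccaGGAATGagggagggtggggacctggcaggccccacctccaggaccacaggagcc

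**Figure D4:**
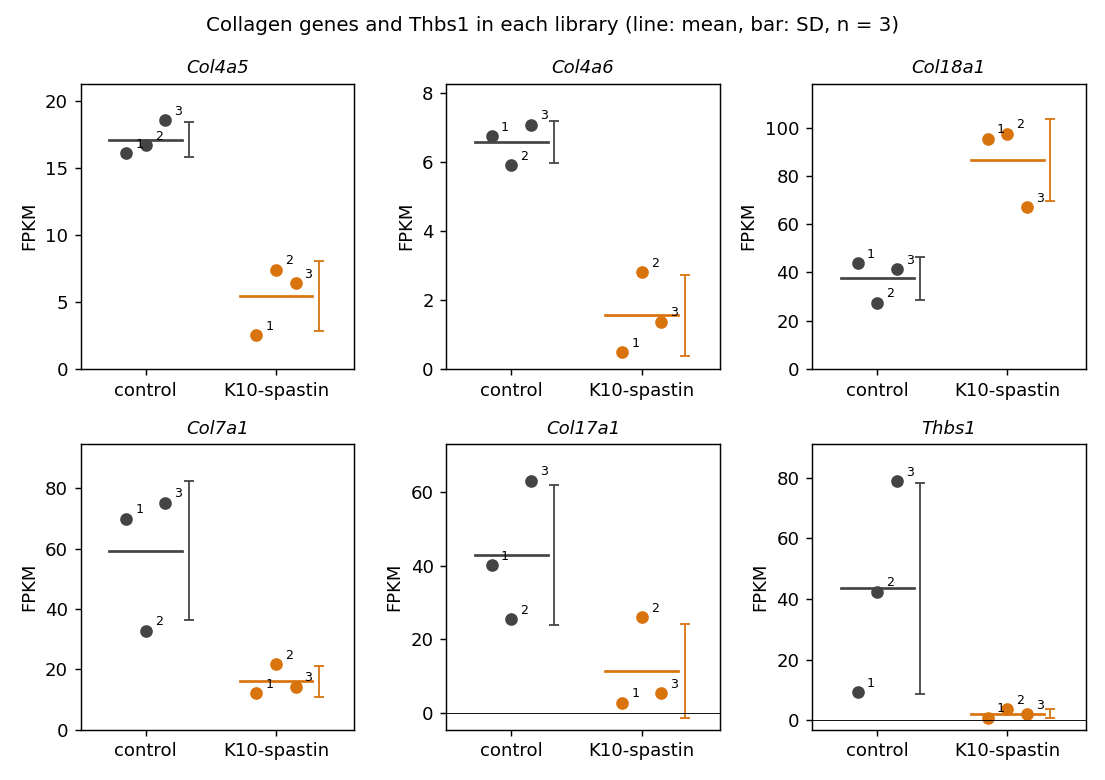
FPKM (y axis) of 5 collagen genes and Thbs1 in control and K10-spastin libraries; numbered points are libraries, lines are means and bars are SD (n = 3). Col18a1 is higher and Col4a5, Col4a6, Col7a1 and Thbs1 are lower in each K10-spastin library than in any control, while K10-spastin 2 reaches the controls for Col17a1.

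Of the genes for proteoglycans, nidogens and dystroglycan, Dag1 fell. Dag1 (ENSMUSG00000039952), the precursor of a receptor that binds laminin and agrin through its sugars, went from 75.9, 78.7 and 79.4 FPKM to 38.9, 52.6 and 56.8 FPKM, a change of -0.67 ± 0.16 (limma adjusted p = 0.0444). The controls lay close together and no K10-spastin library reached them. Agrn and Hspg2, the proteoglycans agrin and perlecan, had changes of -1.59 ± 0.49 and -1.57 ± 0.49, with no overlap between groups, and did not pass (limma adjusted p = 0.0755 and 0.0793). Agrn stood at 21.2, 20.7 and 36.6 FPKM in controls against 3.21, 15.7 and 8.47 FPKM in K10-spastin. The nidogens, which link laminin to type IV collagen, were low, with Nid1 at most 2.18 FPKM and Nid2 at most 0.0767 FPKM, and were not tested.

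The Fraser complex holds fetal epidermis to the dermis. Fras1 (ENSMUSG00000034687) went from 12.2, 15.4 and 18.8 FPKM to 3.76, 7.73 and 6.25 FPKM, a change of -1.28 ± 0.27 (limma adjusted p = 0.0302) with no overlap. Its partner Frem2 was 2.22 to 4.95 FPKM in controls and 0.224 to 1.37 FPKM in K10-spastin, with a change of -1.29 ± 0.34 (limma adjusted p = 0.0534). Npnt, nephronectin, a ligand that basal cells place in the membrane at hair follicles, was 1.46 to 2.81 FPKM in controls and 0.0789 to 1.28 FPKM in K10-spastin (change -0.997 ± 0.341, limma adjusted p = 0.0960). All 3 were lower in every K10-spastin library.

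Thbs1 (ENSMUSG00000040152), a glycoprotein that activates latent TGF-beta, had the largest change of the 31, -3.45 ± 0.72 (limma adjusted p = 0.0289). Its controls spread widely, at 9.28, 42.3 and 78.8 FPKM, against 0.921, 3.69 and 2.02 FPKM in K10-spastin. Fn1, fibronectin, had the same order of controls, at 1.00, 3.46 and 9.82 FPKM, with 0.494, 1.09 and 0.409 FPKM in K10-spastin (change -1.49 ± 0.56, limma adjusted p = 0.122). The dermal collagen Col1a1 also followed this order, at 0.724, 8.42 and 13.3 FPKM in controls and 0.0287 to 0.0647 FPKM in K10-spastin, and its part in these values was not tested. Tnc, tenascin C, was at most 0.625 FPKM and was not tested.

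Genes that act with these proteins were read from 5 lists. Of 22 tested adaptors of integrins and focal adhesions, 1 rose and 2 fell, with a median change of -0.18. These are 4.55% and 9.09% of the list, against 5.14% and 5.90% of all genes tested. Lims1, which joins the kinase ILK to actin at beta 1 tails, went from 7.96, 8.49 and 7.61 FPKM to 17.0, 16.8 and 14.3 FPKM (limma adjusted p = 0.0170). Ptk2, focal adhesion kinase, went from 8.66, 10.3 and 10.7 FPKM to 4.73, 5.41 and 6.60 FPKM (limma adjusted p = 0.0485). The most abundant adaptor, the actin crosslinker Actn4, was 664 to 691 FPKM in controls and 642 to 832 FPKM in K10-spastin (limma adjusted p = 0.468). The second to fall was Tns3, a tensin, named outside the rule after its values were seen.

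Of 22 tested genes for matrix assembly and proteolysis, 2 rose and 1 fell, with a median of -0.31, or 9.09% and 4.55% against the same 5.14% and 5.90% of all genes. Bmp1, which cleaves procollagens and laminin-332 among others, fell from 9.55 ± 2.70 to 2.59 ± 0.92 FPKM (SD, n = 3; limma adjusted p = 0.0209). Timp3, an inhibitor of matrix proteases that is bound to matrix, rose from 3.24 ± 1.39 to 28.4 ± 17.6 FPKM (SD, n = 3; limma adjusted p = 0.0161). The second to rise was the protease Furin, which was named after its values were seen. Of 15 other matrix genes, Ccn2 rose, from 1.75 ± 0.91 to 6.34 ± 2.22 FPKM (SD, n = 3; limma adjusted p = 0.0423), none fell, and the median was -0.76. That is 6.67% higher, against 5.14% of all genes, and none lower, against 5.90%.

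Of 7 TGF-beta genes, Tgfbr2, the receptor that binds the ligand, rose from 1.499, 0.947 and 2.06 FPKM to 15.7, 13.6 and 8.13 FPKM (limma adjusted p = 0.00722). The other 6 did not pass, and the median was -0.03. With so few genes, the 1 call is 14.3% of the list, against 5.14% of all genes tested. Of the other integrin chains, 3 of 14 were tested and none passed. Itga5, the fibronectin receptor chain, was 1.42 to 2.33 FPKM in controls and 2.37 to 4.20 FPKM in K10-spastin (limma adjusted p = 0.130). Over the 5 lists together, 5 of 69 tested genes rose and 3 fell, which is 7.25% and 4.35% and near the 5.14% and 5.90% of all genes tested.

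Promoter windows were read for 28 of the 38 genes, 38 windows in all (RefSeq, GRCm38.p6). Each was searched over the 250 bases before a start on both strands. Any windows of these genes on 1 chromosome were left out, an exclusion not applied to the shares of all windows. The median GC content was 62.0% in the 38 windows and 52.4% in all windows, and its part in the shares below was not tested. The AP-1 letters TGANTCA were in none of the 38 windows and in 6.75% of all 32851 windows. The TEAD letters GGAATG were in 5 of the 38 windows (12.6% of all windows), before Itgb1, Lamb3, Frem2, Nid1 and the inner start of Col18a1. The CArG box of the factor SRF was in 1 window, before the inner start of Itgb6 (1.47% of all windows). A match is a description of letters and not a bound site. No 2 of these motifs share bases in the windows of these genes.

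**Figure D5:**
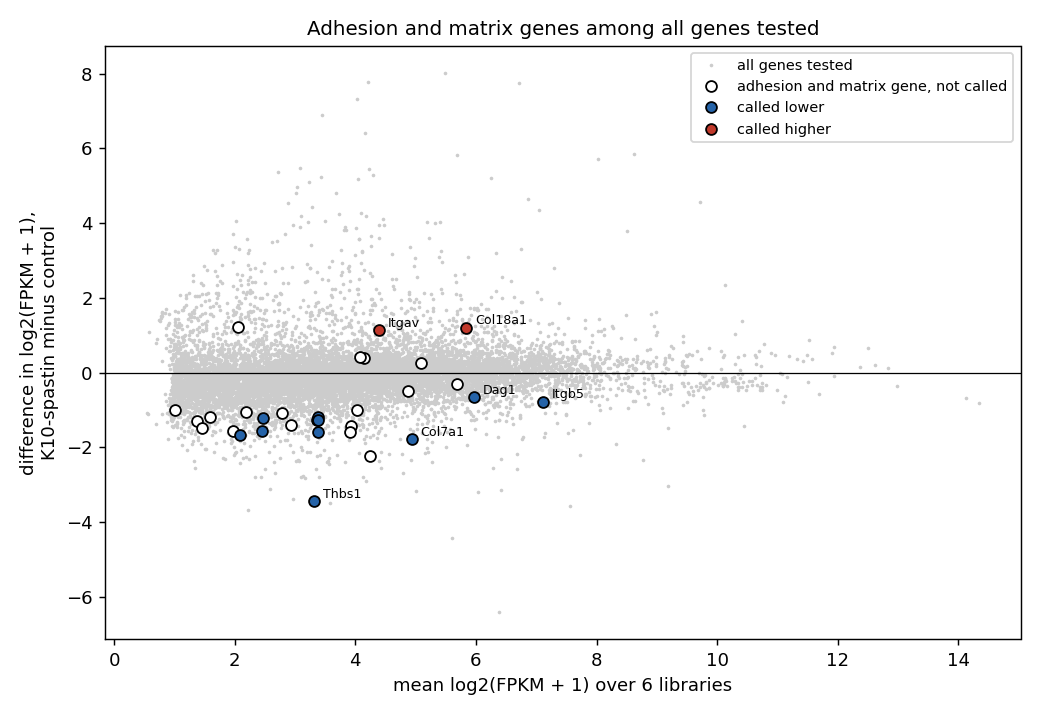
Difference in log2(FPKM + 1) between K10-spastin and control (y axis) against the mean log2(FPKM + 1) of the 6 libraries (x axis), with small grey points for all 11071 genes tested and circles for the 31 adhesion and matrix genes. Filled circles are the 13 that passed, and Thbs1 lies lowest at -3.45.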

How the data were processed

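Messenger RNA was measured in sorted epidermal cells of 3 control and 3 K10-spastin samples. The authors deposited FPKM per gene and library. The submitters' processing notes name CASAVA and TopHat2. Versions, counter, genome build, annotation and strand setting were not given in the sources used here. Of 35275 identifiers, 34490 were matched to symbols through a GENCODE M21 name table. The members and lists were chosen with earlier results of these data known.

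The 11071 genes whose mean over the 6 libraries reached 1 FPKM were compared on log2(FPKM + 1) with limma 3.58.1 in R 4.3.3 (lmFit, eBayes with a trend, two-sided), no covariate, Benjamini-Hochberg adjustment over all genes tested and a threshold of 0.05. FPKM are not counts, so no count test was run. All 38 genes could be named, and in each related list, of the genes tested, the 2 of smallest p and the 2 of highest level.

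Depth was estimated from 14953 genes with 1 GENCODE M21 transcript; 90.7% to 91.7% of values up to 20 fragments were whole within 0.05. Of the 38 genes, 16 share annotated exon bases with another gene, 14 on the opposite strand, whose reads cannot be told apart without strand. Alternatives were a pseudocount of 0.1, no filter, a filter at 5 FPKM, 2 scalings, array weights, the replicate number as a block and each library omitted in turn. Omitting control 1 with K10-spastin 1, and control 3 with K10-spastin 2, was chosen after seeing the data. Python 3.11.15, pandas 2.3.3 and matplotlib 3.10.9 were used for other steps.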

Additional observations from a re-analysis of the deposited data

How the results depend on the processing

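Under the alternatives that keep all 6 libraries, all 13 genes called kept their direction and their call with median-of-ratios scaling, quantile normalization and array weights, 12 did with a pseudocount of 0.1, 11 of the 12 tested did at a filter of 5 FPKM, and 2 did with no filter. Among genes not called, Itgb4 reversed, to -0.41 with array weights and to -0.12 with control 1 and K10-spastin 1 both left out, and the cause was not tested. With no filter, 1 of the adhesion and matrix genes was higher and 1 lower, 319 and 348 of all genes, and 3 and 1 of the related genes, with every gene above 0 in any library in the adjustment. At 5 FPKM, 414 of all genes and 1 related gene were lower. With array weights, 1535 and 1771 of all genes, 23 lower adhesion and matrix genes, and 8 and 15 related genes passed. Deviations of same-numbered libraries from their group means correlated at -0.128, -0.378 and -0.047, and no control correlated best with its own number. Deviations within a group of 3 are bound to each other, so these values cannot settle whether the replicate number pairs the samples. With the replicate block, 274 and 218 of all genes, 0 and 3 of the adhesion and matrix genes (Col4a5, Fras1 and Thbs1), and 3 and 1 related genes passed. With each library left out in turn, 114 to 687 genes were higher and 31 to 707 lower. Adhesion and matrix genes then numbered 0 to 3 higher and 0 to 13 lower, and related genes 1 to 9 higher and 0 to 5 lower. With control 1 and K10-spastin 1 both left out, 0 adhesion and matrix genes were higher and 5 lower, and 3 related genes were higher. With control 3 and K10-spastin 2 both left out, 48 and 7 of all genes, and none of the adhesion and matrix or related genes, 0 in each direction, passed by limma. Such fits with 2 libraries in a group have fewer degrees of freedom. Genes under about 0.2 FPKM rest on few fragments at this depth.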
